A study of Mus musculus with 10 samples.

Results

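The wound keratins measured here are the products of 4 mouse genes, Krt6a, Krt6b, Krt16 and Krt17. These genes were chosen by name, with earlier results of these data known. They are 4 of the 17983 genes listed in any of the 10 libraries and 4 of the 46 keratin (Krt) genes listed. All 4 were listed in every library and all 4 passed the filter on low values, among 15958 genes tested. RNA was sequenced from keratinocytes of mouse back skin, freed from the epidermis with dispase and then trypsin, on day 5. Knockout mice are labelled Gsdma1KO/KO;Gsdma3fx/fx;K14-Cre, so that Gsdma1 is lost in the whole animal, while the floxed Gsdma3 is deleted only where the keratin 14 promoter drives Cre, in basal keratinocytes of skin and follicle and the cells they give rise to. Control mice are labelled wild type, and whether they carried Cre or a floxed allele is not stated in the labels. Over 3 days the back skin was rubbed 2 times a day, either with olive oil in acetone (1 part in 4 parts) or with plain water. The groups held 3 knockout libraries under olive oil/acetone, 2 knockout libraries under water, 3 control libraries under olive oil/acetone and 2 control libraries under water. The labels do not tie libraries to separate animals. The p-values therefore reflect only how far these libraries scatter, and that scatter may be technical.

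Keratins form the intermediate filaments of epithelial cells, and a filament needs a type II partner and a type I partner in equal amounts. Krt6a and Krt6b encode type II keratins, and Krt16 and Krt17 encode type I keratins with which they pair. In resting skin these genes are used in the hair follicle, nail and footpad, in the outer root sheath and the companion layer around the hair. In the epidermis between follicles they are known for being switched on within hours of wounding, barrier loss or inflammation, in keratinocytes described as activated. Acetone extracts skin lipids, and its mixture with olive oil is used to disturb the skin barrier.

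The type II pair lies on chromosome 15 and the type I pair on chromosome 11, all on the minus strand of GRCm38. Krt6b (ENSMUSG00000023041) spans chr15:101676023-101680287 and its neighbour Krt6a (ENSMUSG00000058354) spans chr15:101689910-101694307, with 9 exons each. Krt16 (ENSMUSG00000053797) spans chr11:100246091-100248902 and Krt17 (ENSMUSG00000035557) spans chr11:100256217-100261029, with 8 exons each. The targeted gasdermin genes lie on the same chromosome 11, Gsdma3 at chr11:98626360-98638226 and Gsdma at chr11:98664351-98677708. Krt6a and Krt6b are nearly the same gene in their coding letters. Of 1662 aligned coding bases 37 differed (97.8% identical), with an unbroken identical run of 280 bases. Krt16 and Krt17 differed at 280 of 1285 aligned coding bases (78.2% identical). The following 90-base stretches show where each pair differs most, because reads from these places tell the partners apart. They come from the GENCODE M21 transcripts on GRCm38, 5′ to 3′ on the coding strand, and capitals mark the bases that differ within the pair. In exon 4, Krt6a (chr15:101692484-101692573) and Krt6b (chr15:101678303-101678392) differ at 12 bases.
Krt6a: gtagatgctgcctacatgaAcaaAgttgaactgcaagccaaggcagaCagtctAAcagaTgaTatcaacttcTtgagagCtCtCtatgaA
Krt6b: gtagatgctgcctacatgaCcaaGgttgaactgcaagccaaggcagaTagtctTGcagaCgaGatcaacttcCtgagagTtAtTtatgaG
In exon 5, Krt16 (chr11:100247136-100247225) and Krt17 (chr11:100257777-100257866) differ at 30 bases.
Krt16: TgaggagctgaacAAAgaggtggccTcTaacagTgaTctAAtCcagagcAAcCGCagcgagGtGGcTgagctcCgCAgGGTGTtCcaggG
Krt17: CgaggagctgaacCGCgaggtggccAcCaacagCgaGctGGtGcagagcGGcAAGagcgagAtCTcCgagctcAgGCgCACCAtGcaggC

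This likeness limits how reads can be assigned between the type II genes. Of all 100-base windows of the Krt6a transcript, 31.8% also occurred letter for letter in another Krt gene, nearly always Krt6b. The share was 30.1% for Krt6b, 3.14% for Krt16, where the other gene was Krt14, and 0% for Krt17. The sources used here do not say how reads matching several genes were counted, so the split between Krt6a and Krt6b is uncertain, and their sum is given beside them. If such reads were left out, the sum would miss them too. Levels of Krt6a and Krt6b set against those of Krt16 and Krt17 are therefore uncertain as well.

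Depth across the series was 15914663 to 21812292 recovered reads for a library. The keratinocyte keratins Krt5, Krt14, Krt1 and Krt10 were high in every library, with a summed level of 571827 to 971444 normalised counts. Gsdma3 had 0, 0.90 and 0 normalised counts in knockout libraries under olive oil/acetone and 2.65 and 0 under water, against 62.5 to 283 in the 5 control libraries. Gsdma, the mouse gene that Gsdma1 names, was still counted in knockout libraries (170 to 843, against 200 to 732 in controls), and since it counts every exon, it cannot test whether the targeted part is gone. All 4 Y-linked genes listed were at 0 in the 4 water libraries and high in the 6 olive oil/acetone libraries (summed level 3583 to 4967), so treatment and the presence of Y-linked transcripts cannot be told apart. Control water replicate 2 stood apart from the other control water library. It carried 6947 normalised counts of the inner root sheath keratins Krt25, Krt27, Krt28 and Krt71 together, against 14.4 in replicate 1.

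In knockout skin, Krt6a and Krt6b rose under olive oil/acetone, while Krt16 and Krt17 did not pass the test. Krt6a averaged 6.65 times its level in the knockout water libraries, and Krt6b averaged 396 times. Of all genes tested, limma called 6.74% higher and 6.69% lower in this comparison, and 28.8% were higher in every olive oil/acetone library than in both water libraries.

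Krt6a, the more abundant type II wound keratin, had 7530.1, 10850.2 and 9483 normalised counts in knockout libraries under olive oil/acetone, against 1287 and 1506 under water. The 3 olive oil/acetone libraries lay close together and all above both water libraries. The means were 9288 ± 1669 under olive oil/acetone (SD, n = 3) and 1396 ± 155 under water (SD, n = 2). The log2 difference was 2.72 (SE 0.50, 95% interval 1.61 to 3.83), with a limma adjusted p of 0.0154. Of all 15958 genes tested, 163 had a larger log2 difference. The call was lost without knockout olive oil/acetone replicate 3 (limma adjusted p = 0.0536), without knockout water replicate 1 (0.134) and without knockout water replicate 2 (0.113), each time at a log2 difference between 2.61 and 2.83.

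Krt6b, its near-identical neighbour, had 635, 8341 and 4085 normalised counts in knockout libraries under olive oil/acetone, against 6.17 and 15.8 under water. The water values rest on 7 and 13 reads. All olive oil/acetone libraries were higher, but replicate 1 was far below the other 2. Means were 4354 ± 3859.7 under olive oil/acetone (SD, n = 3) and 10.99 ± 6.82 under water (SD, n = 2). The log2 difference was 7.99 (SE 1.43, 95% interval 4.82 to 11.16), with a limma adjusted p of 0.0147, and 4 genes of 15958 had a larger one. This scale adds 1 to each value and so understates the change of a gene this low in water. The same 3 omissions ended the call (limma adjusted p = 0.0536, 0.134 and 0.109). With Krt6a and Krt6b summed before the fit, the log2 difference was 3.20 (SE 0.56, limma adjusted p = 0.0145).

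Krt16, a type I partner of Krt6, had 28351, 51431 and 20784 normalised counts in knockout libraries under olive oil/acetone, against 37100.4 and 21362 under water. The groups overlapped, with 1 of the olive oil/acetone libraries below both water libraries. Its log2 difference was 0.15 (SE 0.50, 95% interval -0.95 to 1.25; limma adjusted p = 0.853), and it turned to -0.21 when replicate 2 of the olive oil/acetone group was left out. The interval leaves room for changes of up to about 1 on the log2 scale either way.

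Krt17, the other type I partner and the most abundant of the 4 per length in the mean of each group, had 47321, 101330 and 62329 normalised counts in knockout libraries under olive oil/acetone. It had 48110.4 and 37399 under water. Replicate 1 under olive oil/acetone lay just below the higher water library, so the groups overlapped. The log2 difference was 0.66 (SE 0.33, 95% interval -0.08 to 1.39; limma adjusted p = 0.185).

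**Figure D1:**
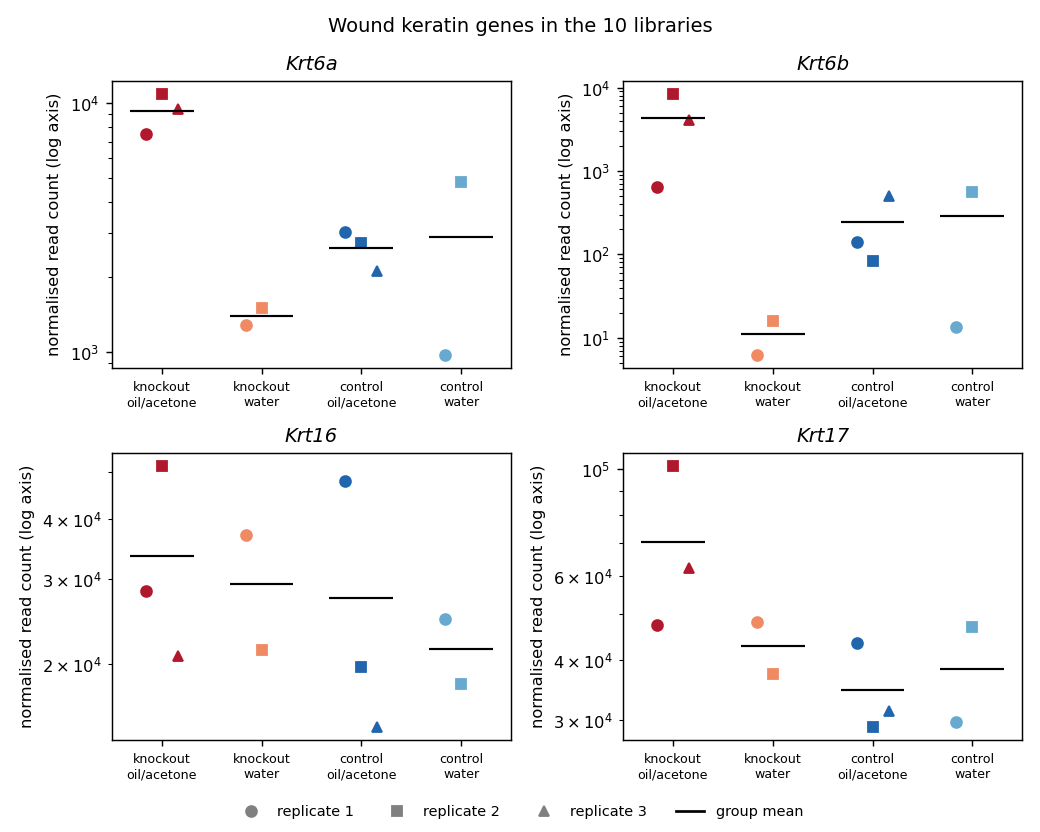
Normalised read counts on a log axis (a different range in each panel) for Krt6a, Krt6b, Krt16 and Krt17 in the 10 libraries, by genotype and treatment; each symbol is 1 library and the bar is the group mean. In knockout libraries, Krt6a and Krt6b under olive oil/acetone lie above both water libraries, while Krt16 and Krt17 overlap.

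In control skin, no member was called. Krt6a had 3019, 2737 and 2108 normalised counts under olive oil/acetone, against 969.7 and 4825 under water. The olive oil/acetone libraries sat between the water libraries, which held the lowest and the highest control value. The log2 difference was 0.26 (SE 0.50, 95% interval -0.85 to 1.37; limma adjusted p = 0.855). Krt6b had 142, 83.2 and 505 under olive oil/acetone, against 13.5 and 562 under water. Again the olive oil/acetone libraries lay between the water libraries, with a log2 difference of 1.02 (SE 1.43, 95% interval -2.15 to 4.19; limma adjusted p = 0.794). On recovered reads both genes had a negative difference in this comparison, Krt6a -0.16 with edgeR and -0.14 with DESeq2, and Krt6b -0.27 and -0.24, none of them called.

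The control value turned on a single water library. Without water replicate 1, the one with little Krt6a, the log2 difference in controls was -0.90 for Krt6a and -1.63 for Krt6b. Without water replicate 2, the one rich in inner root sheath keratins, it was 1.42 for Krt6a and 3.66 for Krt6b, and neither fit made a call. Krt16 had 47944, 19691 and 14776 under olive oil/acetone, against 24739.9 and 18142 under water, and Krt17 had 43505.5, 28994 and 31398 under olive oil/acetone, against 29707 and 46979 under water. Both overlapped, and their log2 differences were 0.18 (SE 0.50, limma adjusted p = 0.897) and -0.13 (SE 0.33, limma adjusted p = 0.89). Among all genes, limma called 0.0627% in this comparison in either direction, DESeq2 2.21% and edgeR 0.0439%. At an unadjusted p under 0.05 limma still counted 0 of the 4 members, and DESeq2 and edgeR called 0.

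Between genotypes under olive oil/acetone, the 3 knockout libraries exceeded the 3 control libraries for 3 of the 4 members, Krt6a, Krt6b and Krt17. Of all genes tested, 8.55% were higher in this way. None passed the limma test, which called 0 of 15958 genes here (0%), with 1908 at an unadjusted p under 0.05. Krt6a averaged 9288 ± 1669 in knockout and 2621 ± 466 in control libraries (SD, n = 3 each), a log2 difference of 1.82 (SE 0.45, 95% interval 0.84 to 2.81; limma adjusted p = 0.314). Krt6b averaged 4354 ± 3859.7 in knockout and 244 ± 229 in control libraries (SD, n = 3 each), a log2 difference of 3.93 (SE 1.28, 95% interval 1.09 to 6.77; limma adjusted p = 0.334). The lowest knockout value of Krt6b, 635, stood close to the highest control value, 505. Krt17 averaged 70327 ± 27879 in knockout and 34632 ± 7778 in control libraries (SD, n = 3 each), a log2 difference of 0.97 (SE 0.30, 95% interval 0.31 to 1.63; limma adjusted p = 0.326). The lowest knockout value, 47321, was again close to the highest control value, 43505.5. Krt16 overlapped, at 33522 ± 15964 in knockout and 27470.1 ± 17900.2 in control libraries (SD, n = 3 each) and a log2 difference of 0.37 (SE 0.44, limma adjusted p = 0.742).

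At an unadjusted p under 0.05 limma counted those same 3 members, DESeq2 called 1 and edgeR 0. The DESeq2 call was Krt6a (log2 difference 1.83, adjusted p = 0.00727), in a comparison where DESeq2 called 1.05% of all genes. With limma, Krt6a also came under the threshold when either control water library was left out. Those libraries are not part of this comparison and enter it mainly through the shared estimate of spread. Each omission left 1 control water library, so it adds no support to the DESeq2 call. With Krt6a and Krt6b summed, the log2 difference was 2.17 (SE 0.50, limma adjusted p = 0.313).

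Under water, no member differed between genotypes beyond the spread. Krt6a averaged 1396 ± 155 in knockout and 2897 ± 2726 in control libraries (SD, n = 2 each), a log2 difference of -0.64 (SE 0.55, limma adjusted p = 0.963). Krt6b averaged 10.99 ± 6.82 in knockout and 288 ± 388 in control libraries, a log2 difference of -3.04 (SE 1.57, limma adjusted p = 0.963). For both genes the higher control library was replicate 2, and without it the differences were 0.52 for Krt6a and -0.40 for Krt6b. Krt16 and Krt17 differed by 0.41 (SE 0.54) and 0.18 (SE 0.36), with limma adjusted p of 0.966 and 0.981. Of the 4 members limma counted 0 at an unadjusted p under 0.05, and DESeq2 and edgeR called 0. Over all genes limma called 0% and counted 795 genes at an unadjusted p under 0.05, while DESeq2 called 6 genes (0.0376%).

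The interaction of genotype and treatment, the treatment difference in knockout minus that in control, was 2.46 for Krt6a (SE 0.71, 95% interval 0.90 to 4.02) and 6.97 for Krt6b (SE 2.03, 95% interval 2.48 to 11.46). Both had a limma adjusted p of 0.356 and were not called. Krt17 had 0.79 (SE 0.47, limma adjusted p = 0.488) and Krt16 had -0.04 (SE 0.70, limma adjusted p = 0.987), which became 0.12 with libraries scaled to equal totals. Limma called 0% of all genes for the interaction, with 1897 at an unadjusted p under 0.05. It counted 2 members at that unadjusted level, DESeq2 called 2 and edgeR 0. The DESeq2 calls were Krt6a and Krt6b (adjusted p = 0.00861 each), where DESeq2 called 1.06% of all genes. With limma both passed without control water replicate 1 (3.62 and 9.61), a fit that left 1 control water library. When the 2 libraries highest in Krt71 were left out, the interaction was 1.18 for Krt6a and 3.54 for Krt6b (limma adjusted p = 0.855 each). These 5 comparisons share libraries, so they are not independent of each other.

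Markers of other cells had mostly positive differences between genotypes under olive oil/acetone, where Krt6a, Krt6b and Krt17 did not overlap. Endothelial genes had a positive log2 difference in 8 of 8 (median 1.85), with a summed level of 736 to 1011 in knockout and 150.1 to 318 in control libraries. Genes of Langerhans and dendritic cells were positive in 11 of 11 (median 1.12), with sums of 31637 to 53312 in knockout and 15803 to 21886 in control libraries. The sums of both lists did not overlap. Sebocyte genes were positive in 12 of 12 (median 0.90), with overlapping sums of 10329 to 23940 in knockout and 8270 to 14293 in control libraries. Limma called 0 genes of these lists, counted 6, 7 and 8 at an unadjusted p under 0.05, and DESeq2 called 4, 5 and 2, while edgeR called 0. Over all 15958 genes limma counted 1908 at that level and DESeq2 called 1.05%. Red blood cell genes were positive in 5 of 5 (median 0.99), melanocyte genes in 7 of 7 (median 0.75) and proliferation genes in 18 of 18 (median 0.38), and fibroblast genes in 2 of 8 (median -0.40). Outer root sheath and bulge genes were positive in 17 of 21 (median 0.44). Their sums overlapped, at 84995 to 129794 in knockout and 128404 to 138028 in control libraries. Limma and edgeR called 0 of these 21, DESeq2 called 2, and limma counted 7 at an unadjusted p under 0.05. The part of these cells in the differences of Krt6a, Krt6b and Krt17 was not tested.

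**Figure D2:**
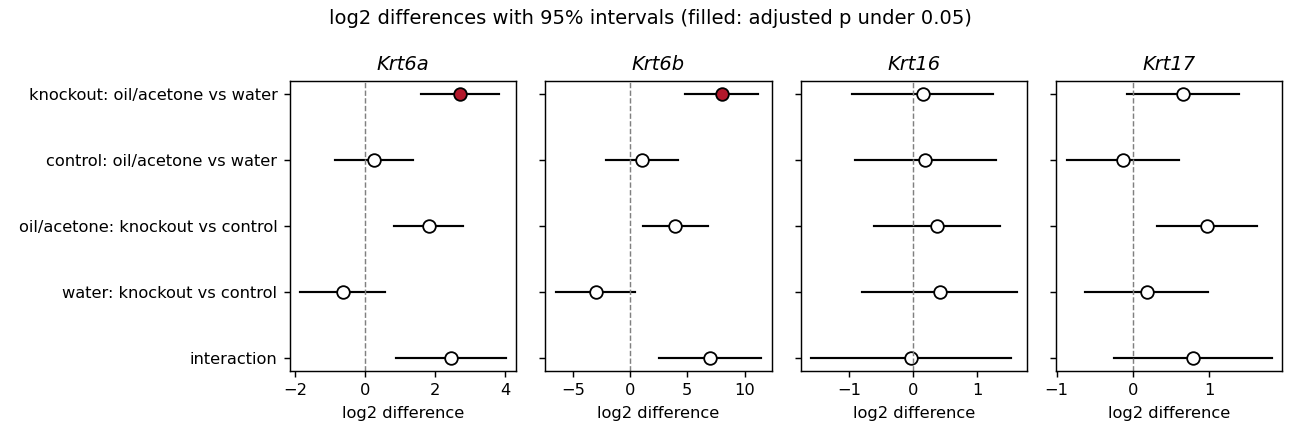
Log2 differences (limma, log2 of value + 1) of the 4 wound keratin genes in 5 comparisons, with 95% intervals; filled points have an adjusted p under 0.05, and each panel has its own horizontal range. The 2 filled points are Krt6a and Krt6b for olive oil/acetone against water in knockout, at 2.72 and 7.99.

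Per kilobase of exon, Krt17 and Krt16 exceeded Krt6a and Krt6b in every library. In knockout libraries under olive oil/acetone the group means were 45343 normalised counts per kilobase for Krt17, 21420 for Krt16, 3841 for Krt6a and 1948 for Krt6b. Under water the same genotype had 27566, 18678, 578 and 4.92, in the same order. Controls had 22329, 17553, 1084 and 109 under olive oil/acetone, and 24722, 13700.4, 1198 and 129 under water. The order Krt17, Krt16, Krt6a, Krt6b therefore held for the means of all 4 groups. Levels of Krt6a and Krt6b would be understated here if reads matching both genes were left out. In single libraries Krt16 passed Krt17 once, in control olive oil/acetone replicate 1, where the ratio per kilobase was 1.09 (0.33 to 0.83 in the other libraries).

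Krt6b varied most among the 4. As a percentage of Krt6a per kilobase it stood at 9.13, 83.2 and 46.6 in knockout libraries under olive oil/acetone and at 0.52 and 1.14 under water. Controls stood at 5.10, 3.29 and 25.9 under olive oil/acetone and 1.501 and 12.6 under water. In 2 libraries, knockout olive oil/acetone replicates 2 and 3, Krt6b thus reached 46.6% or more of Krt6a. These percentages depend on the uncertain split of shared reads. The coefficient of variation within the 4 groups was 11.1% to 94.1% for Krt6a, 62.0% to 135% for Krt6b, 21.8% to 65.2% for Krt16 and 17.7% to 39.6% for Krt17.

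Together the 4 genes made up 9.50%, 18.4% and 14.0% of all Krt gene counts per kilobase in knockout libraries under olive oil/acetone, and 12.5% and 9.08% under water. In controls the shares were 12.1%, 6.67% and 5.56% under olive oil/acetone and 9.004% and 11.1% under water. The shares overlapped between treatments in both genotypes, since Krt16 and Krt17 dominate the sum. Krt6a and Krt6b together amounted to 6.99%, 8.37% and 10.8% of Krt16 and Krt17 together per kilobase in knockout libraries under olive oil/acetone, and to 0.98% and 1.67% under water. Controls had 2.24%, 3.74% and 3.70% under olive oil/acetone, against 1.16% and 5.36% under water. On this ratio the knockout olive oil/acetone libraries were above every other library, and it was not tested. Its size would be understated if reads matching both Krt6a and Krt6b were left out.

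**Figure D3:**
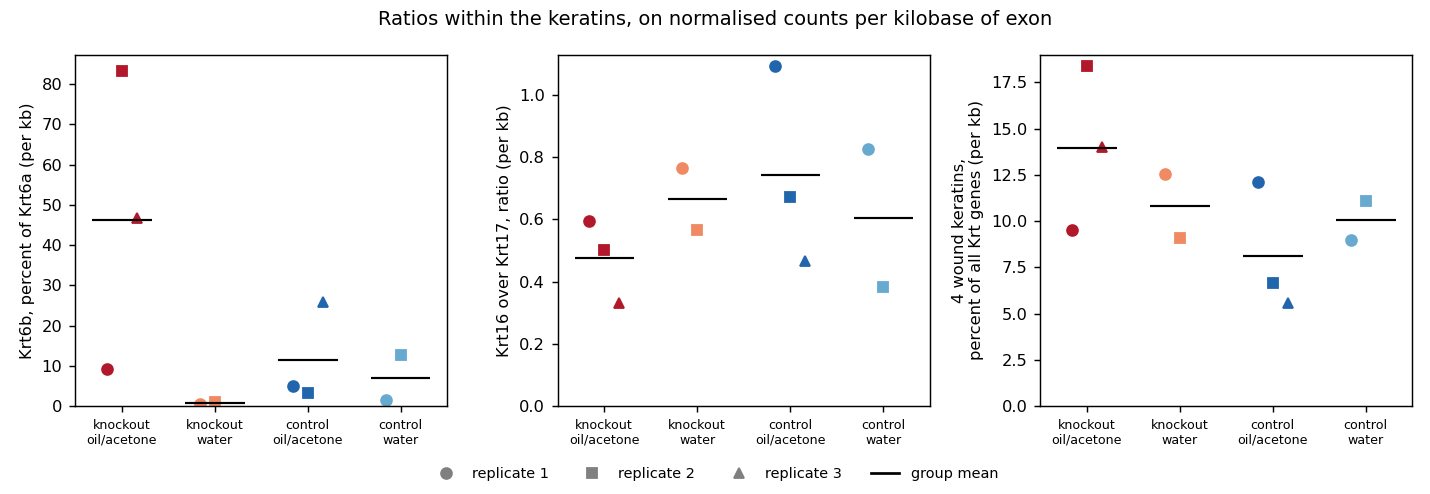
Ratios of keratin levels per kilobase in the 10 libraries, with Krt6b as a percentage of Krt6a (left), Krt16 over Krt17 (middle) and the 4 wound keratins as a percentage of all Krt genes (right); each symbol is 1 library and the bar is the group mean. Krt6b reaches 83.2% of Krt6a in 1 knockout olive oil/acetone library and stays at 0.52% and 1.14% in the knockout water libraries.

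As a measure of likeness, Pearson's r of log2 levels over the 10 libraries was 0.93 between Krt6a and Krt6b, which share part of their sequence. It was 0.75 between Krt6a and Krt17, 0.67 between Krt6b and Krt17, and 0.59 between Krt16 and Krt17. Many genes were closer: among 11955 ranked, Krt17 was at rank 1421 for likeness to Krt6a and 2857 for Krt6b. For likeness to Krt17, Krt6a was at rank 278, Krt6b at 605 and Krt16 at 1139. Krt17 was at rank 249 for likeness to Krt16. Krt16 went least with the type II genes, at 0.20 for Krt6a and 0.06 for Krt6b. The genes most like the mean of the 4, among 11270 ranked, were Degs2 (0.98), Chchd10 (0.97), Lrrc32 (0.97), Klk6 (0.96), Pinx1 (0.96) and Mfge8 (0.96). Krt6b, with the widest range, weighs most in that mean. Degs2 encodes an enzyme of phytoceramide synthesis and Klk6 a secreted protease of the kallikrein family. Chchd10 encodes a mitochondrial protein, Lrrc32 a cell surface protein that binds latent TGF-beta, and Mfge8 a secreted protein that bridges cells to phosphatidylserine. Klk6 had 381, 1673 and 794 normalised counts in knockout libraries under olive oil/acetone, against 52.9 and 40.1 under water. Its highest library was also the highest for Krt6b. All points share the same libraries and treatment groups, so these values only describe these 10 libraries.

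Most other keratins did not pass the test in the comparison where Krt6a and Krt6b rose. Of 33 other Krt genes tested, 4 were called higher and 3 lower under olive oil/acetone in knockout. Over all genes 6.74% were called higher and 6.69% lower, so most genes did not pass either. The median log2 difference of the 33 was 0.29 against 0.01 for all genes. Krt1, the type II keratin of the suprabasal epidermis, averaged 158776 ± 67594 normalised counts under olive oil/acetone (SD, n = 3) and 40164 ± 9308 under water (SD, n = 2), where means of other genes are given in the same way (log2 difference 1.92, SE 0.37, limma adjusted p = 0.0164). In controls Krt1 averaged 105904 ± 35732 under olive oil/acetone and 33375 ± 92.7 under water. That log2 difference was 1.61 (SE 0.37, limma adjusted p = 0.164, DESeq2 adjusted p = 0.00104). Krt80, expressed late in keratinocyte differentiation, averaged 7235 ± 1190.3 under olive oil/acetone and 18684 ± 1105 under water (log2 difference -1.38, SE 0.21, limma adjusted p = 0.0104). Krt15, a keratin of basal and bulge cells, averaged 39249 ± 2482 under olive oil/acetone and 73853 ± 8592 under water (log2 difference -0.91, SE 0.19, limma adjusted p = 0.0219). The constitutive pair of basal cells was not called, with log2 differences of 0.03 (SE 0.31) for Krt5 and 0.55 (SE 0.26) for Krt14. Krt24, called higher, and Krt32, called lower, were named after their values were seen (log2 differences 1.15 and -1.12), and Krt32 missed the threshold with libraries scaled to equal totals. Limma and edgeR called 0 of the 33 in the other 4 comparisons. For treatment in controls limma counted 10 at an unadjusted p under 0.05 and DESeq2 called 11, and for genotype under olive oil/acetone these counts were 6 and 1. Under water they were 3 and 0, and for the interaction 12 and 8. Over all 15958 genes limma counted 2051, 1908, 795 and 1897 at that level in these 4 comparisons, in the same order. DESeq2 called 2.21%, 1.05%, 0.0376% and 1.06% of all genes.

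**Figure D4:**
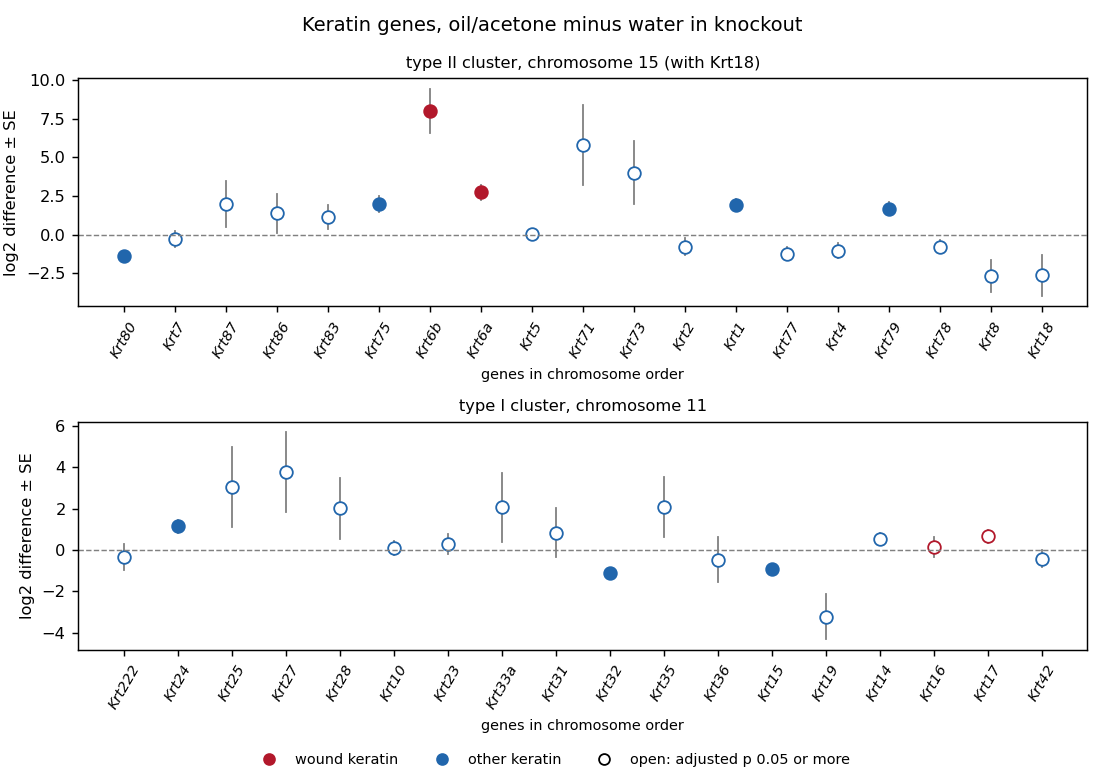
Log2 difference ± SE of the tested keratin genes, olive oil/acetone minus water in knockout, with genes in chromosome order in the type II cluster (top) and the type I cluster (bottom); filled points have an adjusted p under 0.05. Krt6b and Krt6a stand above their called neighbour Krt75, while Krt16 and Krt17 are drawn unfilled beside Krt14 and Krt42.

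Both keratins listed for the companion layer and the follicle opening were called higher in knockout, where 6.74% of all genes were called higher. Krt75, the companion layer keratin once called K6hf, had 497, 481 and 787 normalised counts under olive oil/acetone, against 128 and 162 under water (log2 difference 1.99, SE 0.53, limma adjusted p = 0.0379). Krt79, a keratin of the follicle opening, had 35560.4, 99275 and 76069 under olive oil/acetone, against 19000 and 21848 under water (log2 difference 1.66, SE 0.42, limma adjusted p = 0.0334). For both genes every olive oil/acetone library was above both water libraries, which also held for 28.8% of all genes tested. Without the 2 libraries highest in Krt71, Krt75 kept its call (log2 difference 2.11, limma adjusted p = 0.012) and Krt79 lost it (log2 difference 1.35, limma adjusted p = 0.0506). Of the 23 alternatives, 6 ended the call of Krt75 and 7 that of Krt79, and none reversed either. For both genes they included leaving out knockout olive oil/acetone replicate 2 or 3, either knockout water library or control olive oil/acetone replicate 2. Control water replicate 2, the library with high Krt6a, also had the highest Krt75 of all libraries, at 802.

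Follicle markers moved with Krt6a and Krt6b in some libraries. The summed level of Krt25, Krt27, Krt28 and Krt71, keratins of the inner root sheath, was 91.1, 1283 and 401 in knockout libraries under olive oil/acetone, against 30.0 and 25.5 under water. Controls had 89.6, 20.1 and 26.4 under olive oil/acetone, against 14.4 and 6947 under water, with Krt71 at 0 in the lower one. Over the whole list of 22 tested hair shaft and inner root sheath genes, 1 was called higher and 2 lower in knockout, and the summed level was 6007 to 8339 under olive oil/acetone and 6586 to 7777 under water. Controls had 7049 to 8716 under olive oil/acetone and 6294 to 20254 under water. The median log2 difference of the 22 genes was 1.82 in knockout (17 positive and 5 negative), -2.17 in controls (3 positive and 19 negative) and 4.03 for the interaction, against 0.01, 0.00042 and 0.03 for all genes. Between genotypes under olive oil/acetone it was 1.77 and under water -1.95. In the limma fit of all libraries these medians had the same sign as the differences of Krt6a and Krt6b in knockout, between genotypes and for the interaction. In controls the sign was opposite in that fit. It was not stable, since both genes had negative control differences with edgeR, with DESeq2 and without water replicate 1. Limma and edgeR called 0 of the 22 in the 4 comparisons other than treatment in knockout. For the interaction limma counted 12 at an unadjusted p under 0.05 and DESeq2 called 10. These counts were 7 and 8 for treatment in controls. Between genotypes they were 5 and 0 under olive oil/acetone, and 2 and 0 under water. Over all 15958 genes limma counted 1897 for the interaction and 2051 for treatment in controls, and DESeq2 called 1.06% and 2.21%. The part of these follicle cells in the Krt6a and Krt6b result was not tested. Of 21 genes of the outer root sheath and bulge, 2 were called higher (Barx2 and Aqp3) and 0 lower in knockout, with a median log2 difference of 0.25 (13 positive and 8 negative). Over all genes 6.74% were called higher and 6.69% lower. The share called higher was close to that of all genes, both for these 21 genes and for the 22 above. The summed level of those 21 overlapped, at 84995 to 129794 in knockout libraries under olive oil/acetone and 107922 to 110747 under water. Within that list the factors Sox9 and Lhx2 summed to 3789, 5224 and 4811 in knockout libraries under olive oil/acetone, against 3802 and 3401 under water. In controls they summed to 3273, 3186 and 2240 under olive oil/acetone, against 2300 and 3835 under water, so treatments overlapped in both genotypes. Between genotypes under olive oil/acetone the sums did not overlap, with every knockout library above every control library. Of all genes tested, 8.55% were higher in this way. Leaving out the 2 libraries highest in Krt71 (knockout olive oil/acetone replicate 2 and control water replicate 2) kept both calls, Krt6a at a log2 difference of 2.60 (limma adjusted p = 0.00151) and Krt6b at 7.20 (limma adjusted p = 0.0143). In controls the same omission moved Krt6a to 1.42 (limma adjusted p = 0.0751) and Krt6b to 3.66 (limma adjusted p = 0.175). In such bulk samples, fewer cells of a type and less RNA per cell cannot be told apart.

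**Figure D5:**
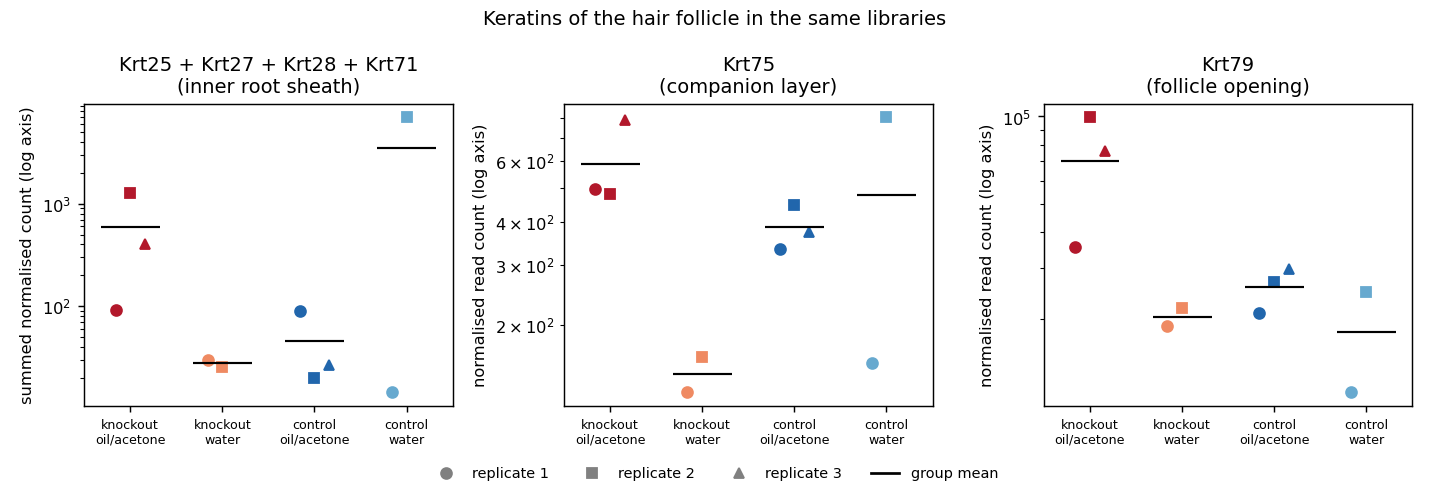
Keratins of the hair follicle on log axes in the 10 libraries, with the summed inner root sheath keratins (left), Krt75 of the companion layer (middle) and Krt79 of the follicle opening (right); each symbol is 1 library and the bar is the group mean. Control water replicate 2 reaches 6947 for the inner root sheath sum, against 14.4 in the other control water library.

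Markers of other cells also moved with treatment in knockout. Red blood cell genes summed to 14407 to 27549 under olive oil/acetone and 1176 to 2544 under water in knockout libraries, with 5 of 5 called higher. Controls ranged from 4427 to 13396 under olive oil/acetone and from 3321 to 6497 under water. Endothelial genes summed to 736 to 1011 under olive oil/acetone and 125 to 433 under water in knockout libraries, with 4 of 8 called higher. Of 18 proliferation genes, 17 were called higher in knockout under olive oil/acetone, with a median log2 difference of 2.0. In controls 18 of 18 were also positive (median 0.87), with sums of 13453 to 25081.5 under olive oil/acetone and 9181 to 13316 under water. Limma and edgeR called 0 of them in controls, DESeq2 called 3, and limma counted 10 at an unadjusted p under 0.05. Over all 15958 genes limma counted 2051 at that level in controls, and DESeq2 called 2.21%. Over all genes limma called 6.74% higher and 6.69% lower in this comparison. Of the lists for sebocytes, Langerhans and dendritic cells and fibroblasts 1 gene each was called, and of the 29 for T cells, neutrophils, skeletal muscle and melanocytes limma and edgeR called 0, DESeq2 called 4 and limma counted 4 at an unadjusted p under 0.05. The part of these cells and of cycling keratinocytes in the Krt6a and Krt6b result was not tested.

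Of the ligands known to induce wound keratins, only cytokines were called by limma, and all of those higher. Of 8 ligands of the epidermal growth factor (EGF) family, which induce Krt6 and Krt16 in cultured keratinocytes, none was called by limma, DESeq2 or edgeR in knockout. At an unadjusted p under 0.05 limma counted 1. The median log2 difference was -0.09, and 0.04 with libraries scaled to equal totals. Epgn, which encodes the ligand epigen, had 15624, 3789 and 2253 normalised counts under olive oil/acetone, against 28183 and 21353 under water. All olive oil/acetone libraries were lower, and the log2 difference of -2.26 (SE 0.87) had a limma adjusted p of 0.0958. Nrg1, which encodes neuregulin, overlapped between the groups (log2 difference -0.37, SE 0.50, limma adjusted p = 0.62).

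Among 14 cytokine ligands, 4 were called higher and 0 lower, where 6.74% of all genes were called higher and 6.69% lower. In controls 8 were positive and 6 negative. Limma called 0 of them there and counted 6 at an unadjusted p under 0.05, and DESeq2 called 3, against 2.21% of all genes. Il1f6 and Il1f8 encode IL-36 cytokines of the skin. Il1f6 had 64.2, 266 and 47.2 normalised counts under olive oil/acetone, against 2.65 and 2.43 under water (log2 difference 4.74, SE 0.72, limma adjusted p = 0.0104). Il1f8 had 132, 370.1 and 147 under olive oil/acetone, against 19.4 and 2.43 under water (log2 difference 4.54, SE 0.81, limma adjusted p = 0.0147). For both, replicate 2 was the highest library, as it was for all 4 wound keratins. The other 2, named after their values were seen, were Il1f9 and Il17a. Il1f9, another IL-36 ligand, averaged 792 ± 351 under olive oil/acetone, against 127 ± 6.05 under water. Il17a, a T cell cytokine, averaged 28.5 ± 17.5 under olive oil/acetone, against 3.86 ± 2.02 under water. Control means were also higher under olive oil/acetone, at 52.8 against 5.18 for Il1f6 and 107 against 10.3 for Il1f8. They were 644 against 124 for Il1f9 and 15.4 against 6.20 for Il17a. Il17a lost its call when the libraries highest in Krt71 were left out (limma adjusted p = 0.0722). Il33, an alarmin stored in keratinocyte nuclei, had a log2 difference of 0.90 (SE 0.31, limma adjusted p = 0.0741).

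Receptor genes were called lower or not at all. Of 21 receptor genes for these ligands, 0 were called higher and 7 lower in knockout under olive oil/acetone, with a median log2 difference of -0.58. Over all genes 6.74% were called higher and 6.69% lower. Osmr, the receptor chain for oncostatin M, had 958, 763 and 683 normalised counts under olive oil/acetone, against 1545 and 1599.7 under water (log2 difference -0.99, SE 0.18, limma adjusted p = 0.015). Il6ra, the interleukin 6 receptor, averaged 1508 ± 218 under olive oil/acetone and 3149 ± 188 under water (log2 difference -1.07, SE 0.22, limma adjusted p = 0.0193). Egfr, the EGF receptor, named here only after its values were known, averaged 2876 ± 845 under olive oil/acetone and 5118 ± 726 under water (log2 difference -0.86, SE 0.25, limma adjusted p = 0.0469). With libraries scaled to equal totals the receptor count stayed at 0 higher and 7 lower. Without the 2 libraries highest in Krt71, 1 receptor gene was called lower.

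Of 33 transcription factor genes tied to these keratins, 2 were called higher and 10 lower, with a median log2 difference of -0.54. Over all genes 6.74% were called higher and 6.69% lower. The share of factors called higher was thus close to that of all genes. Fosl1, an AP-1 subunit of wound-edge keratinocytes, had 903, 419 and 426 normalised counts under olive oil/acetone, against 2233 and 2167 under water (log2 difference -2.01, SE 0.43, limma adjusted p = 0.0219). Nfe2l2, which encodes NRF2, a reported activator of wound keratin transcription, and Keap1, its inhibitor, were named after their values were seen. Nfe2l2 averaged 1779 ± 376 under olive oil/acetone and 3686 ± 82.5 under water (log2 difference -1.07, SE 0.29, limma adjusted p = 0.0383). Keap1 averaged 1030.1 ± 14.9 under olive oil/acetone and 693 ± 11.5 under water (log2 difference 0.57, SE 0.17, limma adjusted p = 0.0468). Without the libraries highest in Krt71, 1 factor was called higher and 4 lower, and neither Nfe2l2 (limma adjusted p = 0.0649) nor Keap1 (0.0894) was among them.

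Partners and linkers of keratin filaments numbered 17, of which 1 was called higher and 3 lower, where 6.74% of all genes were called higher and 6.69% lower. The share called higher was thus close to that of all genes. Flg, which encodes filaggrin, the protein that bundles keratin filaments in the granular layer, had 3735, 9497 and 1989 normalised counts under olive oil/acetone, against 281 and 191 under water (log2 difference 4.15, SE 0.58, limma adjusted p = 0.00796). In controls Flg averaged 2869 ± 963 under olive oil/acetone and 288 ± 179 under water, where limma called 0 of the 17. Ppl, which encodes periplakin, a linker of filaments to desmosomes, averaged 9926 ± 1848 under olive oil/acetone and 20419 ± 753 under water (log2 difference -1.06, SE 0.21, limma adjusted p = 0.0192). Eppk1, which encodes epiplakin, a large linker that binds keratin filaments, averaged 6652 ± 1584 under olive oil/acetone and 17187 ± 2329 under water (log2 difference -1.39, SE 0.30, limma adjusted p = 0.0219). The third gene called lower was Rhbdf2, which encodes iRhom2, a binding partner of keratin 16, also chosen with its values in view (3489 ± 296 under olive oil/acetone and 5943 ± 171 under water, limma adjusted p = 0.0266).

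Of 39 other genes known from activated keratinocytes, 13 were called higher and 0 lower in knockout under olive oil/acetone, where 6.74% of all genes were called higher. The median log2 difference of the 39 was 1.80 against 0.01 for all genes, with 30 positive and 9 negative. In controls 30 were likewise positive and 9 negative, with a median of 0.75 against 0.00042 for all genes. Limma and edgeR called 1 of the 39 there, DESeq2 called 9, and limma counted 13 at an unadjusted p under 0.05. Over all 15958 genes limma counted 2051 at that level in controls, and DESeq2 called 2.21%. This list, like the others here, was chosen with earlier results of these data known. Its share therefore describes these data and is not an independent test. Stfa3, a stefin that inhibits cysteine proteases, had 19246, 21669.9 and 13163 normalised counts under olive oil/acetone, against 174 and 258 under water (log2 difference 6.37, SE 0.39, limma adjusted p = 2.67e-05). BC100530, a gene of the same family, had 13574, 25458 and 11141 under olive oil/acetone, against 59.1 and 124 under water (log2 difference 7.50, SE 0.93, limma adjusted p = 0.00569). Stefin genes are close copies, so the split of reads among them is uncertain. Sprr1b, a precursor of the cornified envelope, averaged 5878 ± 2507 under olive oil/acetone and 1221 ± 447 under water (log2 difference 2.23, SE 0.35, limma adjusted p = 0.0105). Sprr2a3, a cornified envelope gene that also has close copies, averaged 809 ± 519 under olive oil/acetone and 34.7 ± 23.3 under water (log2 difference 4.39, SE 1.09, limma adjusted p = 0.0322).

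Stfa3 was the only gene of these 8 lists that limma called in controls, where it had 7633, 12346 and 12388 normalised counts under olive oil/acetone, against 179 and 479 under water. Limma counted 33 of the 144 tested genes on the 8 lists at an unadjusted p under 0.05 in controls. DESeq2 called 15 of them and edgeR 1. Over all 15958 genes limma counted 2051 at that level in controls, and DESeq2 called 2.21%. For genotype under olive oil/acetone, limma called 0 of the 144 tested genes on the 8 lists, counted 30 at an unadjusted p under 0.05, and DESeq2 called 6 and edgeR 0. Sprr1b averaged 5878 ± 2507 in knockout and 2320.2 ± 486 in control libraries there (log2 difference 1.27, SE 0.31, limma adjusted p = 0.314), and Krt79 averaged 70302 ± 32247 in knockout and 25926 ± 4413 in control libraries (log2 difference 1.33, SE 0.38, limma adjusted p = 0.314). Both had no overlap between genotypes, and 8.55% of all genes tested were likewise higher in every knockout library. Il20ra, a receptor chain for interleukins of the IL-20 group, was lower in all 3 knockout libraries, at 369 ± 114 in knockout and 857 ± 234 in control libraries (log2 difference -1.22, SE 0.25, limma adjusted p = 0.301). For the interaction, limma called 0 of the 144, counted 27 at an unadjusted p under 0.05, and DESeq2 called 3 and edgeR 0. Over all genes DESeq2 called 1.05% for genotype under olive oil/acetone and 1.06% for the interaction.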

How the data were processed

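The deposited values are normalised read counts per gene (a signal that is never negative) in a file for each library. The authors, per the submitters' processing notes, used Trimmomatic 0.38, featureCounts 2.0.0 and DESeq2 1.26.0 with GRCm38 (mm10); for the aligner, annotation release and strand setting, the sources used here give nothing. In each library all values (100%, tolerance 0.1 read) were whole multiples of a single step, which gave whole reads. The 15987 genes listed in all 10 files were scaled by median-of-ratios factors, keeping genes that reached 10 in at least 2 libraries. Differences of log2(value + 1) were tested with limma 3.58.1 (R 4.3.3; 1 model of 4 group means, eBayes with trend, two-sided), with Benjamini-Hochberg adjustment over all genes tested and a call at an adjusted p under 0.05. edgeR 4.0.16 and DESeq2 1.42.0 on recovered reads were alternatives. Levels per kilobase used union exon lengths of GENCODE M21. Genes named were the 4 wound keratins, the 6 most like their mean, and from 8 lists the 2 with the lowest adjusted p (mean of 50 or more) in the knockout treatment comparison and under olive oil/acetone between genotypes. Krt24, Krt32, Il1f9, Il17a, Egfr, Nfe2l2, Keap1, Rhbdf2, Barx2 and Aqp3 were named after their values were seen. The members and lists were chosen with earlier results of these data known. The limma fit was tested on simulated data. One of the transcription factor genes called is not reported here by name.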

Additional observations from a re-analysis of the deposited data

How the results depend on the processing

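The calls of Krt6a and Krt6b in knockout kept their direction in all 23 alternatives and lost significance in 3 of them each, the omissions of knockout olive oil/acetone replicate 3 or of either knockout water library. Leaving out 1 library at a time gave 2.60 to 2.86 for Krt6a and 7.20 to 9.05 for Krt6b in that comparison. The other ranges that crossed 0 or the threshold were, for Krt6a, -0.90 to 1.42 (treatment in control), 1.68 to 1.97 (genotype under olive oil/acetone), -1.80 to 0.52 (genotype under water) and 1.30 to 3.62 (interaction); for Krt6b, -1.63 to 3.66 (treatment in control) and 4.33 to 9.61 (interaction); for Krt16, -0.25 to 0.54 (treatment in knockout), -0.32 to 0.53 (treatment in control) and -0.43 to 0.46 (interaction); and for Krt17, -0.47 to 0.20 (treatment in control) and -0.15 to 0.51 (genotype under water). Where 1 library was left in a group, it was assumed to vary like the other groups. With DESeq2, Krt6a gave 1.83 between genotypes under olive oil/acetone and 2.88 for the interaction, and Krt6b gave 8.88 for the interaction, all called. In controls Krt6a gave -0.16 with edgeR and -0.14 with DESeq2, and Krt6b gave -0.27 and -0.24. Equal totals gave Krt16 an interaction of 0.12 and moved all genes by a median of 0.12 in knockout, with 1346 called higher and 845 lower against 1076 and 1067. Leaving out the 2 libraries highest in Krt71, chosen after seeing the data, gave -0.21 (knockout) and -0.037 (control) for Krt16, 0.20 for Krt17 in control and 0.52 for Krt6a between genotypes under water. The cause of these changes was not tested.

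Genes called for treatment in knockout numbered 2143, against 3610 (DESeq2), 803 (no trend), 3892 (fit of only the groups compared), 3907 (genes listed in both groups), 1023 (without the libraries highest in Krt71) and 9 to 3141 without 1 library. In controls 10 were called, against 352, 58 (replicate block), 33 (without those libraries) and 6 to 470. Between genotypes under olive oil/acetone 0 were called, against 168 (DESeq2), 2 (only the groups compared), 2 (genes listed in both) and 0 to 51; under water 0, against 6 (DESeq2), 1 (without those libraries) and 0 to 1; for the interaction 0, against 169 (DESeq2) and 0 to 72. The replicate block changed no call of a wound keratin. Deviations of same-numbered libraries from their group means had correlations of -0.11 to 0.45. In groups of 2 libraries such deviations mirror each other, so this check cannot decide whether the numbers pair libraries. For the interaction, which uses all groups, the fits of only the groups compared and of genes listed in them were not separate alternatives. Groups of 2 and 3 libraries and 7 to 14 reads of Krt6b in some water libraries limit the precision; intervals cover the spread between libraries only.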
